A study of Arabidopsis thaliana with 3 samples.

Results

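A set of 118 Arabidopsis thaliana loci had lower transcript ratios in the hy5-1 mutant than in its wild type on every array of the series. The set was chosen on the deposited ratios themselves, out of 7234 loci with a named feature. A locus entered when its log2 ratio of hy5-1 over Landsberg erecta (Ler) was -0.7 or lower on each of 3 arrays and -1 or lower on average. These limits were met by 121 loci, or 1.67% of all, and 3 of them (UGT78D1, TIC and CUL4) were left out by name. Each array carried hy5-1 RNA labelled with Cy5 (Hyper5) and Ler RNA labelled with Cy3. Plants of both genotypes were 3 weeks old, had grown at 22 °C under days of 16 h light and 8 h dark, and were then kept for 1 day at 4 °C. They grew in pots of organic substrate and vermiculite, and the labels name no organ for the RNA, which was amplified before labelling. The series held no plants kept warm, so the ratios compare the genotypes in the cold. The 3 arrays were labelled as biological replicates. All 3 had the same dye orientation, so dye bias and genotype cannot be told apart. The sources do not state which channel is the numerator: values below 0 are read here as lower in hy5-1, on the assumption of Cy5 over Cy3. The series titles put Ler first, and the opposite reading would turn every direction together. The link between gene names and values was also found from the values, and every name rests on it. HY5 and the other 24 listed genes of light signalling and HY5 targets were not analysed here, which leaves the mutation unchecked at its own transcript.

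HY5 is a bZIP transcription factor that acts downstream of the photoreceptors. In darkness the COP1 ubiquitin ligase marks it for breakdown, and in light it accumulates and binds promoters that carry ACGT-containing elements, through which it promotes photomorphogenesis, pigment accumulation and parts of nutrient assimilation. It is also known to accumulate in the cold. Loss-of-function hy5 mutants have long hypocotyls in the light.

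Replicate 2 stood apart from the other arrays. Over the 7234 loci the ratios of replicates 1 and 3 correlated at r = 0.759, those of replicates 1 and 2 at 0.512 and those of replicates 2 and 3 at 0.504 (across genes that share each array, as a description). DFR, an enzyme of the anthocyanin branch, had 2.61 on replicate 1, -1.64 on replicate 2 and 2.28 on replicate 3. Under the reading used here, DFR was thus higher in hy5-1 on replicates 1 and 3, while HY5 is known to promote pigment accumulation. These values do not settle the direction of the ratios. With the sign of replicate 2 turned, as if its dyes had been exchanged against the labels, 11 loci met the limits in either direction. Of these 11, 0 were among the 118, which the limit on every array fixes in advance. If those dyes had been exchanged, each of the 118 loci would be higher in hy5-1 on replicate 2 and lower on the other arrays, and the set could not be called lower in the mutant. The labels state no such exchange. For this reason every locus described here is given with its value on each array. Of the 24 organ markers listed, 2 were measured: the leaf gene RCA had -0.11, 0.87 and 0.28 on replicates 1, 2 and 3, and the root gene EXPA18 had 0.02, 0.04 and 0.13. A ratio between genotypes gives no level, so these values do not check the organ.

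The limits were met far more often below 0 than above it. The mirrored limits, 0.7 or higher on every array and 1 or higher on average, were met by 13 loci, or 0.18%. The median over all loci was 0 on each of the 3 arrays. Among the 118 loci the median of the means was -1.17 (2.26-fold lower), and the means ran from -2.12 to -1.003. A mean of -1.5 or lower was reached by 21 loci, 31 lay above -1.5 and at -1.2 or lower, and 66 lay above -1.2. In a ratio from bulk plant RNA, fewer cells that express a gene and less transcript per cell cannot be told apart.

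**Figure D1:**
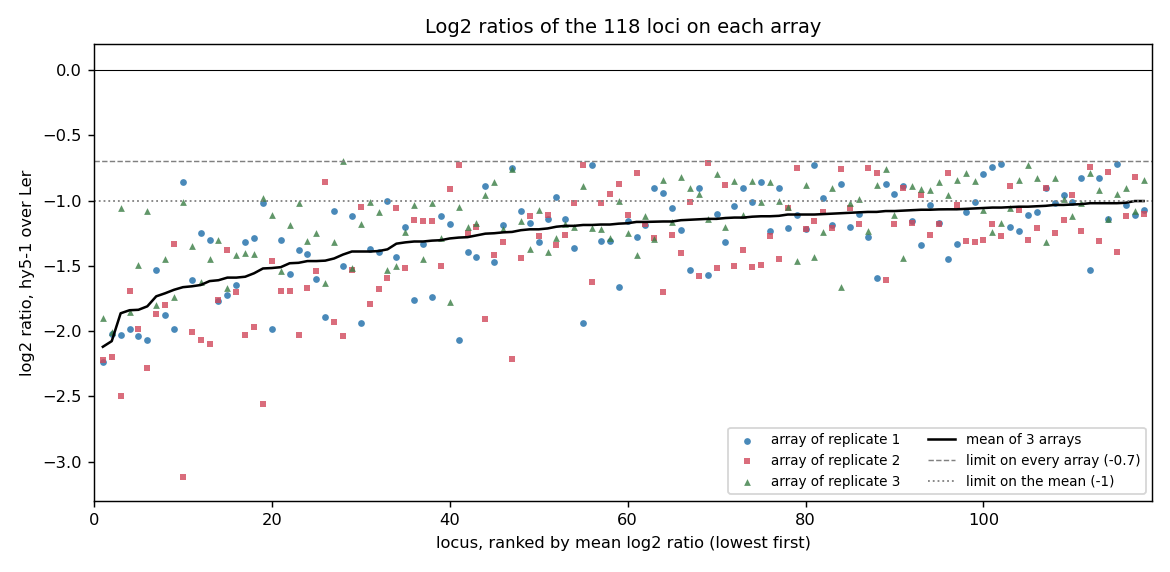
Log2 ratios of hy5-1 over Ler (vertical axis) of the 118 loci, ranked by their mean from lowest to highest (horizontal axis). Circles, squares and triangles are the arrays of replicates 1, 2 and 3, the black line is the mean of the 3 arrays, and the dashed and dotted lines are the limits of -0.7 and -1. The line climbs steeply over the first loci and flattens towards -1.003, and the lowest single value, -3.12, is on replicate 2.

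The supplied gene tables gave a function name to 12 of the 118 loci, and 5 others belong to families listed here from background knowledge. The other 101 carry only a locus number in those tables. The named genes act in sulfate assimilation, RNA processing and decay, protein folding and modification, membrane traffic, thylakoid shape, the cell wall, sugar balance, transport and peptide reception. Since the values chose the loci, they are given as a description.

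SIR (AT5G04590) encodes the ferredoxin-dependent sulfite reductase of plastids, which reduces sulfite to sulfide for cysteine synthesis. Its log2 ratio was -1.61 on replicate 1, -2.01 on replicate 2 and -1.35 on replicate 3, with a mean of -1.66 ± 0.33 (SD, n = 3), or 3.15-fold lower. All 3 arrays lay well below both limits. Of 34 genes listed for sulfate uptake and assimilation, 2 had a named feature. The other was APS4 (AT5G43780), an ATP sulfurylase, which activates sulfate at the start of the pathway. APS4 had 0.38, 0.21 and 0.12 on replicates 1, 2 and 3, above 0 on each, and did not pass the limma test over all loci (adjusted p = 0.161). The 2 measured genes of the list thus lay on opposite sides of 0, and the other 32 were not analysed here.

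Among genes of RNA processing and decay, 3 named genes and AT3G27550 belonged to the set. UPF3 (AT1G33980), which links the exon junction complex to nonsense-mediated decay, had -1.16, -1.17 and -0.89 on replicates 1, 2 and 3. Its mean was -1.07 ± 0.16 (SD, n = 3), and its arrays differed little. Of 8 genes listed here for nonsense-mediated decay and the exon junction complex, 3 were measured. UPF2 (AT2G39260), the partner that UPF3 binds, had -0.90, -0.02 and -0.29 and did not pass (limma adjusted p = 0.191). BTZ1 (AT1G80000), a relative of the animal exon junction protein Barentsz, averaged 0.10 ± 0.17 (SD, n = 3). The 2 listed genes outside the set thus did not pass, against 9.29% called lower and 7.88% called higher among all 7234 loci.

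CAF1 (AT2G20020) is a cofactor of group II intron splicing in chloroplasts and carries CRM domains, an RNA-binding fold. It had -1.45, -0.79 and -0.96 on replicates 1, 2 and 3, a mean of -1.07 ± 0.34 (SD, n = 3). AT3G27550, listed here as another CRM-domain protein, was lower, at -1.88, -1.80 and -1.45, with a mean of -1.71 ± 0.23 (SD, n = 3). Of 11 CRM-domain genes listed, 5 were measured, and these 2 are low by the choice of the set. The other 3 are CFM3A, CFM3B and AT2G28480. CFM3A (AT3G23070), a chloroplast splicing factor of this family, missed the set by 0.01 on a single array: it had -1.08, -0.69 and -1.39, and fell by the limma test (mean -1.05 ± 0.35, SD, n = 3, adjusted p = 0.0219). This call, like every limma call given here, was lost without replicate 1 and without replicate 3. CFM3B (AT4G14510), its close relative, averaged -0.37 ± 0.29 (SD, n = 3) and did not pass (limma adjusted p = 0.129). AT2G28480 was the measured CRM gene above 0, at 0.19 ± 0.10 (SD, n = 3). The median of the 3 genes outside the set was -0.37, against 0 over all loci, and 1 of the 3 was called lower, against 9.29% of all loci.

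Relatives of the next named genes were looked up by symbol after values had been seen, so they are a description of each family. TRZ3 (AT1G52160) is a tRNase Z, the endonuclease that trims the trailing end of transfer RNA precursors. Its ratios were -0.89, -1.91 and -0.96 on replicates 1, 2 and 3, so replicate 2 lay far below the other arrays. TRZ1 (AT1G74700), the other measured tRNase Z, had -0.24, -0.55 and -0.53 and did not pass (limma adjusted p = 0.0524).

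**Figure D2:**
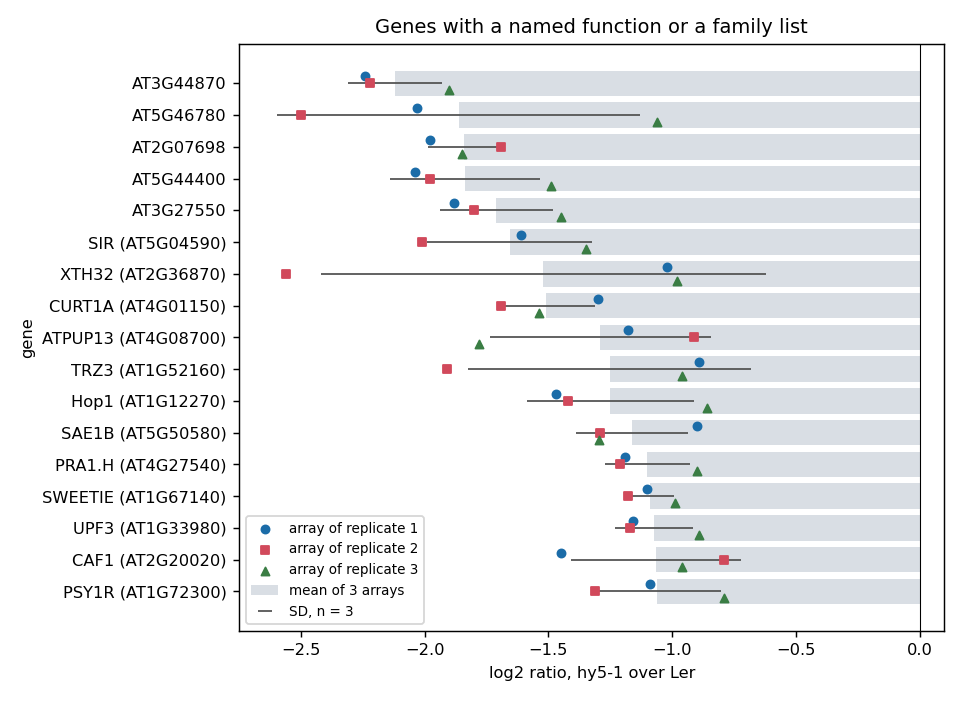
Log2 ratios of hy5-1 over Ler (horizontal axis) of the 17 genes with a function name in the tables or a place in a listed family (vertical axis). Grey bars are means of 3 arrays, lines their SD, and circles, squares and triangles the arrays of replicates 1, 2 and 3. AT3G44870 is lowest at -2.12, and XTH32 and TRZ3 have replicate 2 far from the other arrays.

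Protein folding, modification and membrane traffic contributed 3 named genes. Hop1 (AT1G12270) is a co-chaperone that bridges Hsp70 and Hsp90. It had -1.47, -1.42 and -0.86 on replicates 1, 2 and 3, a mean of -1.25 ± 0.34 (SD, n = 3). Its relative Hop2 (AT1G62740) had -0.71, -0.27 and 0.00 and did not pass (limma adjusted p = 0.207).

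SAE1B (AT5G50580) encodes a small subunit of the enzyme that activates SUMO, a ubiquitin-like modifier. It was measured by 2 features. The first had -0.94, -1.21 and -1.10 on replicates 1, 2 and 3, and the second had -0.86, -1.37 and -1.49. The features lay close on replicates 1 and 2 and further apart on replicate 3, with a joint mean of -1.16 ± 0.23 (SD, n = 3 arrays). The gene table gives the same symbol to AT5G50680, so the features may also read this second gene, which was not tested. SAE1A (AT4G24940), which encodes the other form of the same subunit, stayed near 0 at -0.04 ± 0.14 (SD, n = 3).

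PRA1.H (AT4G27540) belongs to the prenylated Rab acceptors, membrane proteins of vesicle traffic. It had -1.19, -1.21 and -0.90 on replicates 1, 2 and 3, a mean of -1.10 ± 0.17 (SD, n = 3). The 6 other measured genes of the family all had means above 0, from 0.17 for PRA1.F4 to 0.86 for PRA1.B1. Of these 6, PRA1.B1, PRA1.B6 and PRA1.E rose, with means of 0.86, 0.72 and 0.70 and limma adjusted p-values of 0.0197, 0.0312 and 0.0215. That is 3 of 6, against 7.88% called higher among all loci. Over all loci 570 were called higher, and 166 with arrays scaled by their median absolute deviation. Whether the 3 PRA1 calls hold with scaled arrays was not tested. PRA1.H was thus the family's measured gene on the lower side, which its selection fixes, while its relatives were not part of that selection.

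CURT1A (AT4G01150) bends thylakoid membranes at the margins of grana. Its ratios were -1.30, -1.69 and -1.54 on replicates 1, 2 and 3, with a mean of -1.51 ± 0.20 (SD, n = 3), or 2.85-fold lower. CURT1D (AT4G38100) fell as well, with -0.61, -0.88 and -0.83 (limma adjusted p = 0.0196). CURT1C (AT1G52220) had 0.23, 0.90 and -0.08, which differed in sign between arrays. Of the 2 measured CURT1 genes outside the set, 1 was thus called lower, against 9.29% of all loci.

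XTH32 (AT2G36870), a xyloglucan endotransglucosylase/hydrolase that remodels the cell wall, had -1.02 on replicate 1, -2.56 on replicate 2 and -0.98 on replicate 3. Its mean of -1.52 ± 0.90 (SD, n = 3) became -1 without replicate 2, so that array accounts for part of its distance from 0. None of the 5 other measured XTH genes passed the limma test, at an adjusted p of 0.0581 for XTH19 and more for the rest. Their means ran from -0.64 for XTH20 to 0.55 for XTH19. SWEETIE (AT1G67140), a large protein known for its part in carbohydrate balance and development, had -1.10, -1.18 and -0.99. Its SD over the arrays was 0.10, among the smallest of the set.

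ATPUP13 (AT4G08700), a purine permease, had -1.18, -0.91 and -1.78 on replicates 1, 2 and 3 and was lowest on replicate 3. PSY1R (AT1G72300), a leucine-rich repeat receptor kinase named for the tyrosine-sulfated peptide PSY1, had -1.09, -1.31 and -0.79. Its mean was -1.06 ± 0.26 (SD, n = 3).

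Of the 10 lowest means in the set, 4 belonged to families listed from background knowledge other than the CRM genes. The supplied tables name no product for these loci. The lists were chosen with earlier results of these data known, so nothing is read from this count. AT3G44870, a member of the SABATH family of carboxyl methyltransferases, had -2.24, -2.22 and -1.90 on replicates 1, 2 and 3. It had the lowest mean of the set, 4.35-fold lower, and it lies beside FAMT, a close relative that was not analysed here. The other 11 measured SABATH genes had means from -0.29 to 0.56, and 0 of them passed the limma test (3 had means of 0.38 or more). Among them were JMT, which methylates jasmonate, at 0.40 and BSMT1, which methylates salicylate and benzoate, at 0.56. PXMT1 had the widest spread of the family, with -1.40, 1.60 and -0.98.

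AT5G44400, of the berberine bridge enzyme family of flavin-dependent oxidases, had -2.04, -1.98 and -1.49 on replicates 1, 2 and 3. Of the 17 other measured genes of this family, AT4G20840 and AT4G20860 fell, with means of -0.71 and -0.65 (limma adjusted p = 0.0223 and 0.031), and 0 rose. That is 2 of 17 called lower, against 9.29% called lower and 7.88% called higher among all loci, so no family trend is read from these calls. Of all 18 measured genes, 8 lay below 0 on every array, among them AT5G44400, which is low by choice. None lay above 0 on every array. Over all loci these shares were 27.5% and 27.0%, and the difference was not tested. The genes numbered next to AT5G44400 did not share its low ratio: AT5G44390 averaged -0.38, AT5G44380 -0.05, AT5G44360 -0.12 and AT5G44440 -0.01. The median of the 17 was -0.19.

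AT5G46780, which carries a VQ motif, a short stretch known for binding WRKY factors in other family members, had -2.03, -2.50 and -1.06. Its SD of 0.73 was among the larger ones of the set. The 6 other measured VQ genes had means from -0.47 to 0.19, and 0 passed. AT2G07698, placed here among the alpha subunits of ATP synthase in mitochondria, had -1.98, -1.69 and -1.85 on the 3 arrays. The mitochondrial genome holds a near-identical copy of this gene, and its part in the ratio was not tested. The measured beta subunit gene, AT5G08680, stayed near 0 at -0.07 ± 0.11 (SD, n = 3).

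**Figure D3:**
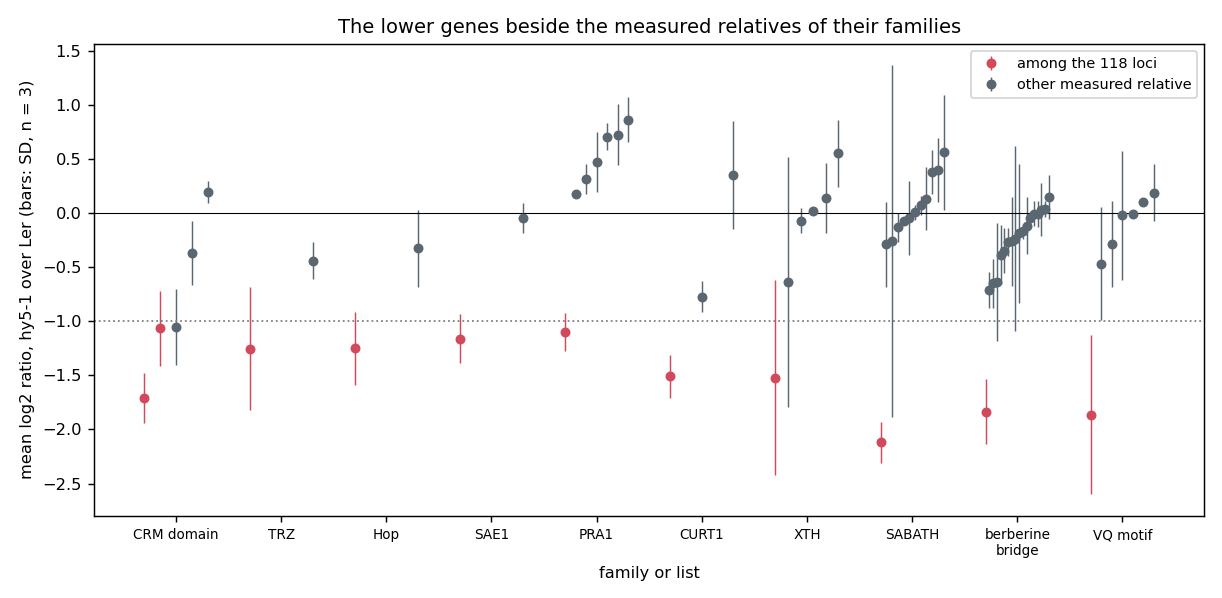
Mean log2 ratios of hy5-1 over Ler (vertical axis, bars are SD over 3 arrays) of the genes of the set (red) and of the other measured genes of the same family or list (grey), by family (horizontal axis). The red points lie lower by choice. The 6 grey PRA1 genes lie between 0.17 and 0.86, and CFM3A at -1.05 is a grey CRM gene that missed the limit on a single array.

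Loci without a function name made up 106 of the 118, and some of them had low or even ratios. AT3G01060 had -2.02, -2.20 and -2.01 on replicates 1, 2 and 3, the second lowest mean of the set, with an SD of 0.11. AT3G05900 had -2.07, -2.28 and -1.08, AT5G03460 had -1.53, -1.87 and -1.80, and AT3G17800 had -1.98, -1.33 and -1.74. The most even locus was AT5G40720, with -1.19, -1.18 and -1.12 and an SD of 0.04. The SD over the 3 arrays was under 0.2 for 43 of the 118 loci and over 0.5 for 11. Its median was 0.25, against 0.19 over all loci.

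The arrays did not contribute evenly. The lowest value of a locus was on replicate 2 for 62 of the 118 loci, on replicate 1 for 40 and on replicate 3 for 16. The medians over the 118 loci were -1.2 on replicate 1, -1.27 on replicate 2 and -1.11 on replicate 3, and values of -2 or lower numbered 6, 13 and 1 on these arrays. For 14 loci replicate 2 lay 0.5 or more below both other arrays. AT2G23910 was the extreme case, with -0.86, -3.12 and -1.01, followed by XTH32 and AT1G05870, which had -0.75, -2.21 and -0.76. Without replicate 2 the means of AT2G23910 and AT1G05870 were -0.94 and -0.76, against -1.66 and -1.24 with it. For 10 loci replicate 1 was the low array by 0.5 or more, among them AT2G39210, with -2.07, -0.73 and -1.05, and AT3G44630, with -1.94, -0.73 and -0.89. For 3 loci it was replicate 3, namely ATPUP13, AT4G34560 and AT1G13460. The loci of this paragraph were picked after their values were seen.

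**Figure D4:**
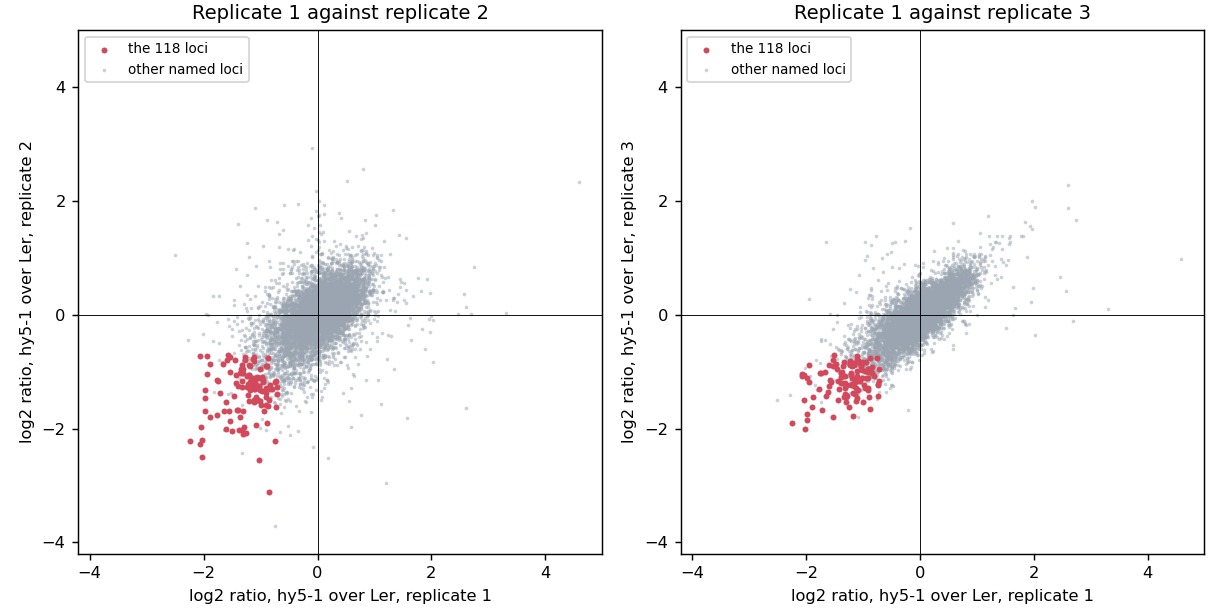
Log2 ratio of hy5-1 over Ler on replicate 1 (horizontal axes) against replicate 2 (left, vertical axis) and replicate 3 (right, vertical axis), with the 118 loci in red and the other named loci in grey. The cloud is wider on the left (r = 0.512) than on the right (r = 0.759), and the red points fill the lower left corner that the limits define.

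A limma fit over all 7234 loci called 672 of them lower in hy5-1, or 9.29%, and 116 of the 118 loci were among these. The same ratios had chosen the loci, so nothing is read from that count. AT2G23910 and AT1G05870 did not pass, with adjusted p-values of 0.0679 and 0.0573. All of these calls, and those of the relatives named above, were lost without replicate 1 and without replicate 3, where limma called 0 loci lower and 0 higher (890 and 813 lower at an unadjusted p under 0.05). Without replicate 2 it called 725 lower.

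Most of the set rests on a single feature per locus, which was the case for 114 of the 118. AT1G31870 was the exception, with 10 features. They gave -1.40 to -0.97 on replicate 1, -1.40 to -0.97 on replicate 2 and -1.32 to -0.58 on replicate 3. Their SDs were 0.15, 0.17 and 0.21 on the 3 arrays. On replicate 3, 3 of the 10 features lay above the limit of -0.7, and 8 of the 10 had a mean of -1 or lower. A locus measured by only 1 of these features could therefore have fallen on either side of the limits. AT3G07380 and AT2G33855 had 2 features each that agreed in sign but not in size. In AT3G07380 one feature had -1.79, -1.94 and -1.24 and its partner -0.66, -0.87 and -0.40. In AT2G33855 they had -1.51, -1.81 and -1.45 against -0.60, -0.71 and -0.88. The features of AT1G31870 and of 6 further loci with 10 or more also served to find the order of the value rows, so their likeness is not independent of that order. Over these 7 loci the SD between features of a locus was 0.11, 0.18 and 0.11 on replicates 1, 2 and 3. On replicates 1, 2 and 3, 20, 18 and 27 of the 118 loci lay between -0.9 and the limit of -0.7.

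**Figure D5:**
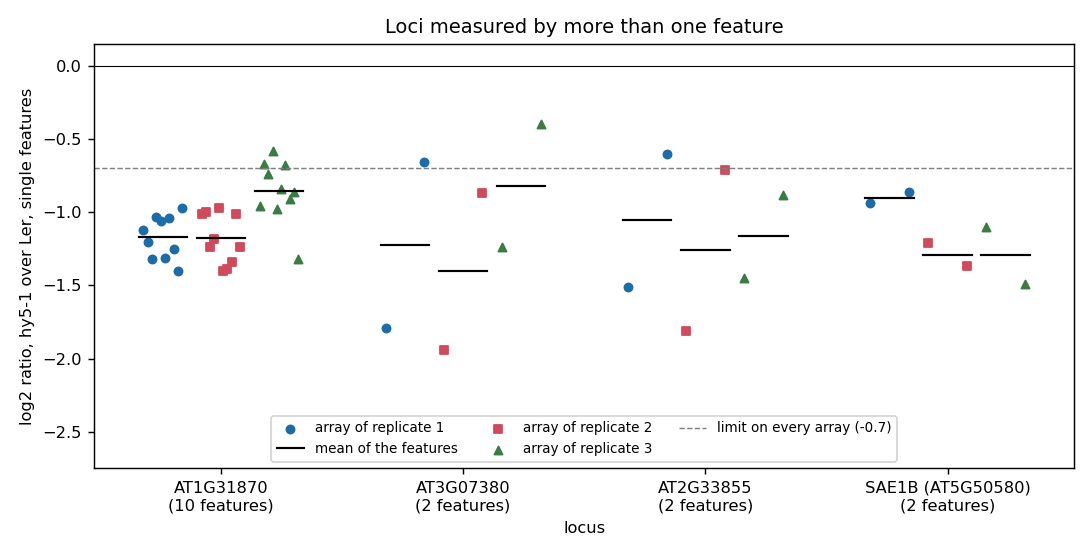
Log2 ratios of hy5-1 over Ler (vertical axis) of single features of the 4 loci of the set with more than 1 feature (horizontal axis). Circles, squares and triangles are the arrays of replicates 1, 2 and 3, black bars are means over features, and the dashed line is the limit of -0.7. The 10 features of AT1G31870 span -1.40 to -0.58 over the arrays, and 3 of them lie above the limit on replicate 3.

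At the limit on the mean, the loci just inside were AT5G12350 and AT5G55220, both at -1.003, AT1G79080 at -1.02, and AT4G32915 and AT4G33140, both at -1.02. The loci just outside were AT5G54830 at -0.99, then AT1G50575, AT5G39530 and Mfl1 (AT5G42130), each at -0.99, and AT4G37080 at -0.99. The means on the 2 sides differed by less than the SD of any of these loci. In all, 65 loci passed the limit on every array but not that on the mean. A further 25 had a mean of -1 or lower and missed the limit on an array, 24 of them on a single array. Among the 25 was BIP1 (AT5G28540), an Hsp70 chaperone of the endoplasmic reticulum, with -2.01, -0.34 and -0.94. The transcription factor YAB5 (AT2G26580) had -0.91, -2.02 and -0.67. MIA40 (AT5G23395), of protein import into mitochondria, had -0.52, -1.95 and -0.59 and missed the limit on both replicate 1 and replicate 3.

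The set was spread over the genome. Chromosome 1 held 29 of the 118 loci, chromosome 2 held 22, chromosome 3 held 19, chromosome 4 held 18 and chromosome 5 held 30. As a share of the named loci this ran from 1.32% on chromosome 3 to 2.04% on chromosome 2, against 1.63% overall. Of 100 named loci flanking HY5 on chromosome 5, 3 belonged to the set: AT5G09840, AT5G10150 and AT5G12350. They averaged -1.10, -1.22 and -1.003. Neighbours were taken from the gene order of assembly TAIR10.1.

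Genes next to the 118 loci mostly did not share their low ratio. The 235 nearest named loci on either side had a median mean of 0.02, against 0 over all loci. Loci that met the limits took 4 of these 235 places, against 1.67% of all loci, so nothing is read from that count. These 4 came from a pair on chromosome 2 and a pair on chromosome 4. AT2G16890 had -1.16, -1.11 and -1.25 on replicates 1, 2 and 3, and AT2G16900 had -1.32, -0.88 and -1.2, with 1 annotated gene between them. AT4G29490 had -0.83, -1.23 and -1.02, and AT4G29520 had -1.39, -1.25 and -1.2, also with 1 annotated gene between. Looser neighbours, with up to 20 annotated genes between, were AT1G64370 and AT1G64430, AT3G44870 and AT3G45020, AT5G42660 and AT5G42760, and the series AT5G03180, AT5G03345 and AT5G03460. In each of these stretches the named loci between them had higher means, such as 0.59 and 0.63 between AT5G42660 and AT5G42760.

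On the array, features of the 118 loci were not evenly placed. The grid was split at its middle row and column. Of the 130 features, 48 lay in the upper left block, 35 in the upper right, 21 in the lower left and 26 in the lower right, which is 2.58%, 1.87%, 1.13% and 1.41% of the named features there. The 8 features around each of the 130 had medians from -0.26 to 0.25, and the median of these was 0.00. The part of array position in the ratios was not tested.

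The remaining loci of the set are given by name, with means from -1.65 to -1.02. On chromosome 1 they were AT1G06720, AT1G07820, AT1G08530, AT1G09150, AT1G14170, AT1G18090, AT1G33340, AT1G45332, AT1G52870, AT1G55690, AT1G61770, AT1G73090, AT1G73460, AT1G74320, AT1G74790, AT1G75190, AT1G76450 and AT1G80810. On chromosome 2 they were AT2G01600, AT2G19260, AT2G23390, AT2G24395, AT2G26470, AT2G28720, AT2G30700, AT2G34300, AT2G38950, AT2G39670, AT2G40280, AT2G41090, AT2G45500 and AT2G47830. Chromosome 3 held AT3G05270, AT3G06070, AT3G11745, AT3G13845, AT3G17430, AT3G19370, AT3G19810, AT3G23740, AT3G24820, AT3G48760 and AT3G49810. Chromosome 4 held AT4G01880, AT4G14930, AT4G17470, AT4G22190, AT4G26240, AT4G30470, AT4G34140, AT4G36080, AT4G38500 and AT4G39840. Chromosome 5 held AT5G04250, AT5G07900, AT5G17910, AT5G19540, AT5G20670, AT5G35730, AT5G40340, AT5G41140, AT5G41460, AT5G45030, AT5G49530, AT5G50340, AT5G56890, AT5G58200, AT5G59240 and AT5G67490. Of these, AT4G30470 was lowest, with -1.25, -2.07 and -1.62 on replicates 1, 2 and 3. AT1G64430, one of the neighbours named above, had -1.77, -1.76 and -1.30. AT1G74320 had -1.65, -1.70 and -1.42, AT5G67490 had -1.72, -1.38 and -1.67, and AT1G18090 had -1.60, -1.54 and -1.25. AT5G17910 was the locus of the set in which replicate 2 lay 0.5 or more above both other arrays, with -1.89, -0.86 and -1.63.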

How the data were processed

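The series matrix of 3 two-colour arrays was used. The authors deposited log2 ratios of the channels for 45220 features per array. Scanner, normalisation, log base and numerator were not given in the sources used here. A base of 2 was taken from the range of the values, and ratios above 0 as more transcript in hy5-1 (Cy5 over Cy3), although the titles put Ler first. The median was 0 on each array. Depth does not apply, and the number of arrays limits the precision. Signal over background is unknown.

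The platform annotation named 7440 features of 7234 loci, with symbols and gene order from RefSeq (TAIR10.1). Value rows were linked to features through an order of the grid found from these values. The variance within loci of 10 or more features over their total variance was 0.0347 in this order and 0.978 with the row numbers as given. Loci of several features were given their mean. limma (version 3.58.1, R 4.3.3) fitted an intercept per locus, with Benjamini-Hochberg adjustment over all loci and a threshold of 0.05, and was tested on simulated data.

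The loci and lists were chosen with earlier results of these data known. Genes were named by rule where they had a symbol of sure role, were among the 3 lowest of a group, lay within 5 of the limit on the mean, were neighbours or copies, or shared a listed pathway. Grouping by product text was not possible here for most loci, and further loci with extreme or uneven values were chosen after their values were seen. Alternatives changed the arrays used, their scaling, the averaging, the row order, the limits, the sign of replicate 2 and the test. No sequence was used. An item of the decay list is not reported here.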

Additional observations from a re-analysis of the deposited data

Results flagged for a closer look

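Low ratios also appeared outside the named loci. Among the 37780 features with no gene name here, 258 were at -0.7 or lower on every array and at -1 or lower on average, or 0.683% of them, against 1.80% of the named features. The mirrored limits were met by 77 features with no name, or 0.204%. Control spots among them could not be told from the rest.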

How the results depend on the processing

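The limits were met by 118 loci, and by 114 to 151 loci when a single array was left out, when arrays were centred or scaled, with medians over features, without a limit on single arrays and with loci of a single feature. Of the 118, 102 met the limits without replicate 1, 91 without replicate 2, 108 without replicate 3 and 109 with scaled arrays. With -1 or lower asked of every array 50 loci were left, and with row numbers as given 76, of which 0 were among the 118. With the sign of replicate 2 turned there were 11, with 3 lower and 8 higher. The limma calls lower in hy5-1 numbered 672, and 0 to 725 with an array left out, 225 with arrays scaled by their median absolute deviation, 249 with row numbers as given, 133 with a 2-fold minimum and 1 with an unmoderated statistic. Of the 118, 116 were called, 0 to 118 with an array left out, 75 with scaled arrays and 1 with row numbers as given. The smallest adjusted p with scaled arrays was 0.0494, so those calls lay close to the threshold. The unmoderated statistic set p to 0 for loci with the same value on every array and a mean other than 0. Whether its 1 call lower came from that setting was not tested. The cause of the changes in these counts was not tested.

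Of 40 genes followed singly, 0 turned sign with an array left out, with centred or scaled arrays or with medians over features. The limit on every array all but fixes this. With the sign of replicate 2 turned, the means became 0.42 for AT2G23910, 0.19 for XTH32 and 0.02 for TRZ3. With row numbers as given, the means were 0.35 for AT3G44870, 0.28 for AT5G03460, 0.13 for XTH32, 0.04 for AT4G29520, 0.27 for TRZ3, 0.077 for Hop1, 0.02 for AT1G64370, 0.20 for AT5G40720, 0.57 for AT2G33855, 0.18 for AT3G07380, 0.16 for AT2G16900, 0.02 for UPF3, 0.08 for AT3G45020, 0.00567 for AT1G31870, 0.11 for CAF1, 0.11 for AT5G03345, 0.77 for AT5G42760, 0.053 for AT4G29490, 0.17 for AT4G33140, 0.84 for AT4G32915 and 0.00667 for AT1G79080. Each within-array ratio is already a paired difference, and limma was fitted on those differences, so no further pairing was left to fit. Spot brightness was not used here, so the limit it sets is unknown.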
